A study of Mus musculus with 27 samples.

Results

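The Ighv genes are the variable (V) gene segments of the mouse immunoglobulin heavy chain locus. Their use was described in 27 RNA sequencing libraries of sorted cells from non-obese diabetic (NOD) mice aged 12 weeks. The members are the Ighv genes with at least 10 reads summed over the libraries in which Ptprc, which encodes the leukocyte antigen CD45, exceeded 100 CPM (counts scaled to a library total of 1000000 reads in genes). That rule kept 103 of the 185 annotated Ighv genes, counted in 8 of the 27 libraries. The members were therefore chosen by their own read counts in those 8 libraries, and their levels there against the other libraries are described without a test. The genotype tests further on include some of those 8 libraries and are not independent of the rule.

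The labels give TG- mice as NOD/ShiLtJ and TG+ mice as Ins2-CCL21 NOD, in which an insulin promoter drives the chemokine CCL21, so both genotypes share the NOD background. Leukocytes of islet infiltrates (CD45) gave 4 TG- and 4 TG+ libraries, islet gp38-high stromal cells 2 and 2, and islet gp38-low stromal cells 4 and 4. Fibroblastic reticular cells (FRCs) of skin-draining lymph nodes gave 4 TG- and 3 TG+ libraries, the last numbered 2, 3 and 4. Whether replicates are separate animals is not in the labels, so a p-value speaks for these libraries and may rest on technical spread.

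The RNA did not match the label in many libraries, so each library is named here by its label only. The 8 libraries with Ptprc above 100 CPM were those labelled CD45 TG- replicate 4, gp38-high TG- replicate 2, gp38-low TG- replicate 1, FRC TG- replicates 3 and 4, and FRC TG+ replicates 2, 3 and 4. Their Ptprc level was 169 to 679 CPM, against 0.175 to 5.79 CPM in the other 19, which include 7 of the 8 libraries labelled CD45. A list of 13 B cell markers (among them Cd79a, Ms4a1 and Pax5) summed to 1712 to 3815 CPM in the 8 libraries and to 1.14 to 49.9 CPM in the other 19. The 7 fibroblast markers, which include Col1a1 and Pdgfrb, summed to 25.9 to 115 CPM in the 8 and to 12896 to 41249.9 CPM in the 19. The 8 libraries also held T cell RNA (8 markers, 779 to 1758 CPM) and myeloid RNA (5 markers, 1144 to 6291 CPM). The labelled tissue could not be read from the RNA either: 5 markers of pancreatic acinar cells summed to 239 to 3159 CPM in the 8, with 3159 CPM in FRC TG- replicate 4, labelled lymph node, and 384 CPM in gp38-low TG- replicate 1, labelled islet. In bulk RNA, fewer cells of a type and less RNA per cell cannot be told apart.

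A developing B cell joins 1 V segment to a D and a J segment, and the joined exon is then transcribed with a constant gene such as Ighm, so each B cell clone expresses 1 heavy chain V gene on its productive allele. The V segment encodes most of the antigen-binding variable domain, and a population of many clones therefore uses many V genes. Plasma cells carry far more immunoglobulin RNA per cell than resting B cells, which makes V gene read shares a measure of RNA and not of cells. Alleles of the NOD heavy chain locus differ from the C57BL/6 reference sequence (mm10) to which the reads were aligned.

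Reads had to be assigned between near-identical copies such as Ighv1-26, Ighv1-18 and Ighv1-22. Shown here are the coding sequences of the V genes that led the 8 libraries, with that of Ighv1-18, which led none. They are the reference alleles of GRCm38 (mm10) from the GENCODE M21 transcripts, spliced and written 5′ to 3′ on the coding strand, from the codon after the leader peptide to the end of the segment, and no NOD allele is shown. Ighv1-26 lies on chromosome 12 at 114788372 to 114788805, Ighv1-18 at 114682632 to 114683065 and Ighv1-22 at 114746273 to 114746706, all on the minus strand. The 3 genes are not all alike at 18 of the 351 bases of their coding sequence, and capitals mark the 14 of these that lie after the leader.
Ighv1-26: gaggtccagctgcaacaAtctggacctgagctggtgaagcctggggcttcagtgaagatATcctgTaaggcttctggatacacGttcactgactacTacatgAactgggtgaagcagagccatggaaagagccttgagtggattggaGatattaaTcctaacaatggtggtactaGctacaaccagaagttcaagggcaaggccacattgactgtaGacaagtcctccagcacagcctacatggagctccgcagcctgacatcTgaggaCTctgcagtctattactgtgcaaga
Ighv1-18: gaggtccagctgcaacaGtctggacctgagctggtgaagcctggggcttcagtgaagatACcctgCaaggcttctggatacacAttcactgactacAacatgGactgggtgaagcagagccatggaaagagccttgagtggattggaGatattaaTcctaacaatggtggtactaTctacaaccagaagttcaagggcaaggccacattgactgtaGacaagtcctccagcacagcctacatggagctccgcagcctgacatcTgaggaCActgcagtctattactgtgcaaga
Ighv1-22: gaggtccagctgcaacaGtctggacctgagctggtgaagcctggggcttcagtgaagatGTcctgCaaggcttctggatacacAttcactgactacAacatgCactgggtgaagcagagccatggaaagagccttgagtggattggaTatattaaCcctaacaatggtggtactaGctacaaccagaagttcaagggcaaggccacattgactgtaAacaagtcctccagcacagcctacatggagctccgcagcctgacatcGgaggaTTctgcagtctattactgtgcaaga
Over the whole coding sequence, Ighv1-26 differed from Ighv1-18, its nearest relative in the locus, at 11 bases (96.9% identity) and from Ighv1-22 at 12 bases (96.6% identity). Ighv1-18 and Ighv1-22 differed at 14 bases (96.0% identity). Reads that matched several copies equally well were not counted by the authors' counter, so the split of reads among these 3 genes is uncertain.

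The other 2 leading genes had more distant relatives. Ighv5-4 (113597446 to 113597977) was 92.2% identical to Ighv5-9, and Ighv4-1 (113948282 to 113948796) was 84.3% identical to Ighv4-2. Capitals mark TATTACTGT, a motif chosen after the sequences were viewed, which spans the codon of the conserved cysteine that ends the framework before the third antigen-binding loop.
Ighv5-4: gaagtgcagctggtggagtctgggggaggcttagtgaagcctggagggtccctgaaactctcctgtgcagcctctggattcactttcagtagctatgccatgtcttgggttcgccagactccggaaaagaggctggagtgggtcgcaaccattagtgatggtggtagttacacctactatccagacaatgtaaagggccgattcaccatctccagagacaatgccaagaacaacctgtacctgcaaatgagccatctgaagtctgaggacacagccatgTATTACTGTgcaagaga
Ighv4-1: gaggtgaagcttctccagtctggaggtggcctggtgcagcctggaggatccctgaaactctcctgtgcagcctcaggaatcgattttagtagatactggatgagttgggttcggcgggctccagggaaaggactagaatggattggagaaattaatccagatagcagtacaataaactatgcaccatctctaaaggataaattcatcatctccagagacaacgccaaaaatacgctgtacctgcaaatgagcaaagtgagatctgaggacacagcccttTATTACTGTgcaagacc
TATTACTGT was present in the transcripts of 58 of 103 members (56.3%) and of 31 of the 82 other Ighv genes (37.8%). Its reverse complement was found in 0 of either set.

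Ighv RNA was abundant in every one of the 8 libraries and scarce in the other 19. Summed Ighv reads came to 1230.5 CPM (17369 reads) in the library labelled CD45 TG- replicate 4, 1354 CPM (21897 reads) in gp38-high TG- replicate 2 and 1630 CPM (18739 reads) in gp38-low TG- replicate 1. Among the libraries labelled FRC the sums were 2253 CPM (28991 reads) and 995 CPM (18414 reads) in TG- replicates 3 and 4. In FRC TG+ replicates 2, 3 and 4 they were 850 CPM (7813 reads), 2014 CPM (17156 reads) and 834 CPM (7247 reads). The median of the 8 was 1292 CPM. The highest 2 levels were in libraries labelled FRC, 1 of each genotype, and so were the lowest 3.

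The other 19 libraries held 1 to 161 Ighv reads each, or 0.0397 to 11.4 CPM with a median of 4.18 CPM. The lowest of the 8 was 73.3-fold above the highest of the 19, so the ranges did not overlap. The 8 were chosen by Ptprc, another leukocyte gene. Reads in genes numbered 8517844 to 18498846 in the 8 libraries and 8959919 to 25194443 in the 19, so the low Ighv totals were not accompanied by lower depth. In the 8 libraries 99.6% to 99.8% of Ighv reads lay on the sense strand. In the 19 that share ran from 20% to 98.4%, with a median of 89.0%. Intervals and limits here cover counting error only, since no molecular identifiers are described and PCR copies are not independent molecules.

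**Figure D1:**
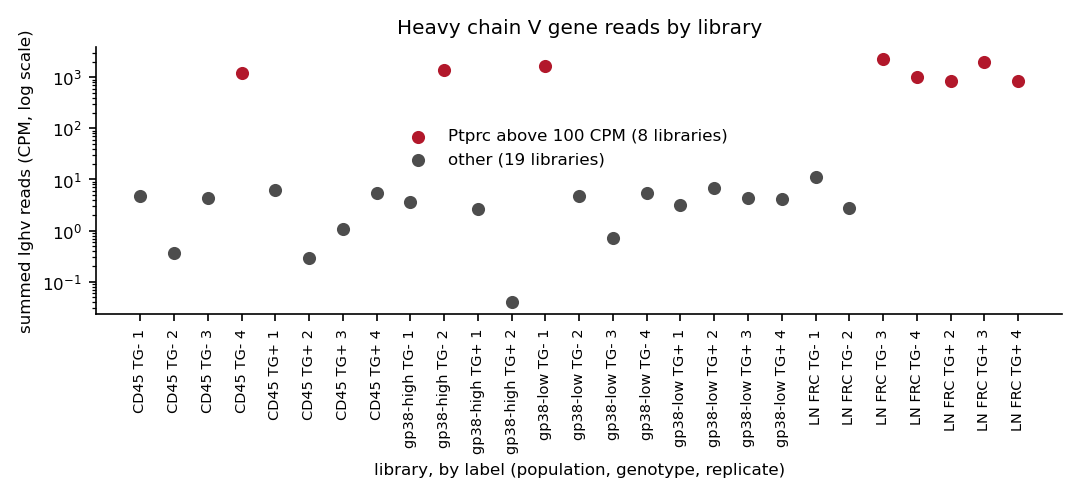
Summed Ighv reads per library in CPM on a log scale, 1 point per library, ordered by label, with the 8 libraries above 100 CPM of Ptprc in their own colour. The 8 lie between 834 and 2253 CPM, and all of the other 19 lie at or below 11.4 CPM.

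Other immunoglobulin RNA was abundant in the same 8 libraries. For every 100 reads of the 8 heavy chain constant genes there were 14.8 to 17.7 Ighv reads (median 16.4), a narrow range given that V gene levels spanned 834 to 2253 CPM. Summed kappa V genes (Igkv) reached 788 to 2235 CPM. Ighm, the constant gene of IgM, took 50.3% to 65.5% of constant reads, and the switched classes (IgG, IgA and IgE) took 27.05% to 41.1%. The 3 genes of V(D)J recombination, Rag1, Rag2 and Dntt, summed to no more than 2.47 CPM.

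Of the 185 annotated Ighv genes, 100 to 116 had at least 1 read in each of the 8 libraries. Between 95 and 102 of the 103 members had at least 1 read, and 89 members were detected in all 8. The members were chosen by their reads in these libraries, so their near-complete detection is largely set by the rule. The effective number of V genes (the exponential of the Shannon entropy of read shares, equal to the number of equally used genes that would give the same entropy) was 49.0 in CD45 TG- replicate 4, 45.7 in gp38-high TG- replicate 2 and 43.7 in gp38-low TG- replicate 1. It was 47.3 and 45.8 in FRC TG- replicates 3 and 4, and 52.4, 45.5 and 55.5 in FRC TG+ replicates 2, 3 and 4. The median was 46.6. With every library thinned by expectation to 7247 Ighv reads, the smallest total, the range was 43.5 to 55.5 and the median 46.3.

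The 2 most even repertoires, FRC TG+ replicates 4 and 2, were also the 2 with the fewest Ighv reads, and thinned to that depth the other 6 stood at 43.5 to 48.8. Between 10 and 16 genes were enough to account for 50% of the Ighv reads of a library. The 5 most used genes took 22.5% of the reads in FRC TG+ replicate 4, the lowest value, and 35.4% in gp38-low TG- replicate 1, the highest.

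No single V gene took more than 13.8% of the Ighv reads of any of the 8 libraries, and 4 genes shared the lead. Ighv1-26 led in 4 libraries, with 10.9% of reads in gp38-low TG- replicate 1 (95% Wilson interval 10.5% to 11.4%) and 11.3% in FRC TG- replicate 3 (10.97% to 11.7%). In FRC TG+ replicates 3 and 4 it led with 6.99% (6.62% to 7.38%) and 5.69% (5.18% to 6.24%). Ighv5-4 led in CD45 TG- replicate 4 with 13.8% (13.3% to 14.4%) and in FRC TG+ replicate 2 with 6.90% (6.36% to 7.48%). Ighv1-22 led in gp38-high TG- replicate 2 with 11.02% (10.6% to 11.4%), and Ighv4-1 in FRC TG- replicate 4 with 8.66% (8.26% to 9.08%). The median leading share was 9.78%.

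Use was uneven across the 103 members. The 10 most used genes together took 40.3% of Ighv reads as a mean of the 8 libraries, 32 members with a mean share of at least 1% took 75.3%, and the median member had a mean share of 0.530%. A further 18 members lay under 0.1%. Members differ little in length (297 to 480 annotated exon bases, median 353), and the 10 most used genes kept their ranks when reads were divided by length.

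Ighv1-26 had the highest mean share, 6.20%. It took 2.31% of Ighv reads in CD45 TG- replicate 4, 2.65% in gp38-high TG- replicate 2, 10.9% in gp38-low TG- replicate 1, 11.3% and 6.02% in FRC TG- replicates 3 and 4, and 3.70%, 6.99% and 5.69% in FRC TG+ replicates 2, 3 and 4. It was highest in gp38-low TG- replicate 1 and FRC TG- replicate 3 and lowest in the other 2 libraries labelled islet, and the 2 genotypes overlapped.

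Ighv5-4, with a mean share of 5.81%, had the widest range of all members, 12.5 percentage points. Its shares in the same order were 13.8%, 6.48% and 1.29% in the islet libraries, 2.51% and 5.46% in FRC TG-, and 6.90%, 6.72% and 3.33% in FRC TG+. It was lowest in the 2 libraries in which Ighv1-26 was highest. Ighv4-1 (mean 5.34%) varied less and had shares of 4.02%, 4.73%, 6.35%, 7.07%, 8.66%, 2.89%, 4.86% and 4.13% in that order. All 3 of its FRC TG+ values lay below both FRC TG- values, a comparison of 3 libraries with 2. How many members separate in this way was not counted.

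Ighv1-22 showed the second widest range, 10.5 percentage points, and its mean share of 3.02% describes few libraries. It took 11.02% in gp38-high TG- replicate 2 and 5.47% in FRC TG+ replicate 2, but 2.16% in CD45 TG- replicate 4, 2.67% in FRC TG- replicate 4 and 0.490% to 0.838% in the remaining 4. Its relative Ighv1-18 stayed between 0.774% and 2.63%. Ighv1-81 (mean 3.17%) reached 8.84% in gp38-low TG- replicate 1 and was between 1.24% and 3.61% elsewhere.

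The remaining genes of the top 10 differed less between libraries. Ighv9-3 ranged from 2.90% to 6.38% (mean 3.85%), Ighv3-6 from 2.33% to 5.12% (3.77%) and Ighv1-9 from 2.04% to 5.13% (3.34%). Ighv1-11 ranged from 1.23% to 5.99% (3.03%) and Ighv1-82 from 0.516% to 5.96% (2.75%). Ighv3-6 was higher in the 3 libraries labelled FRC TG+ (4.30% to 5.12%) than in the other 5 (2.33% to 3.73%). Those 5 mix islet and FRC labels, and the FRC TG- libraries among them were at 3.68% and 3.73%. How many members separate these libraries, in either direction, was not counted, so the difference is not read as one of genotype.

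**Figure D2:**
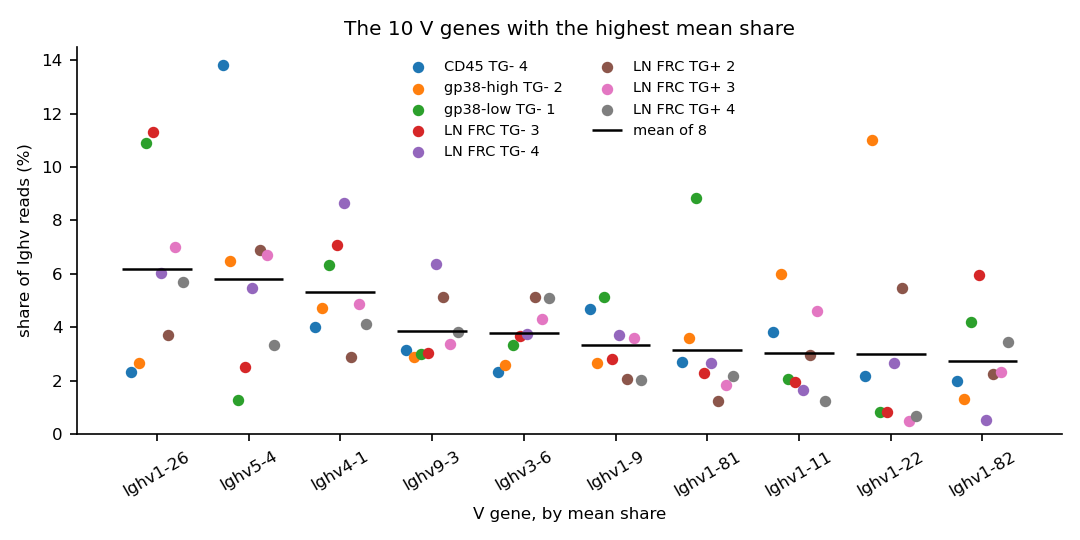
Share of Ighv reads in percent for the 10 V genes with the highest mean share, with 1 point per library for the 8 libraries and a black line at the mean of the 8. Ighv5-4, Ighv1-22 and Ighv1-26 span the widest ranges (12.5, 10.5 and 9.02 percentage points), and no gene exceeds 13.8%.

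Some less used members differed widely between libraries. The 3 named here were chosen after their values were seen. Ighv1-43 took 1.37% in FRC TG- replicate 3 and 1.06% in gp38-low TG- replicate 1 but had 0 reads in FRC TG- replicate 4 and FRC TG+ replicate 2. Ighv1-77 took 1.58% in FRC TG- replicate 4 and 0.00690% in FRC TG- replicate 3, both labelled as the same group. Ighv7-4 took 0.832% in FRC TG+ replicate 2 and had 0 reads in FRC TG- replicate 3.

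By family (V genes of related sequence share the number after Ighv), the large Ighv1 family led every library. Its 93 genes, 52 of them members, took 46.9% of Ighv reads as a mean, from 41.6% in CD45 TG- replicate 4 to 54.6% in gp38-low TG- replicate 1. Ighv5, with 9 members, took 14.1%, from 8.97% in gp38-low TG- replicate 1 to 22.9% in CD45 TG- replicate 4, so the library highest in one family was lowest in the other. Ighv2 (8 members) took 6.70%, Ighv9 (4 members) 5.67%, Ighv4 5.34% through Ighv4-1, its 1 member, and Ighv3 (7 members) 5.03%.

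Smaller families differed in how much they varied. Ighv6 (3 members) varied from 1.61% to 7.12%, with its highest share in FRC TG+ replicate 3, and Ighv14 (4 members) from 2.04% to 4.15%. Ighv11, with Ighv11-2 as its 1 member, a V gene long known from B-1 cells, ranged from 0.386% in FRC TG+ replicate 4 to 3.497% in FRC TG+ replicate 3. Ighv8 took 1.39% to 2.33%. Ighv12 took 0.760% to 1.92%, Ighv13 0.0806% to 1.22%, and the 1 gene of Ighv16 had no member.

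**Figure D3:**
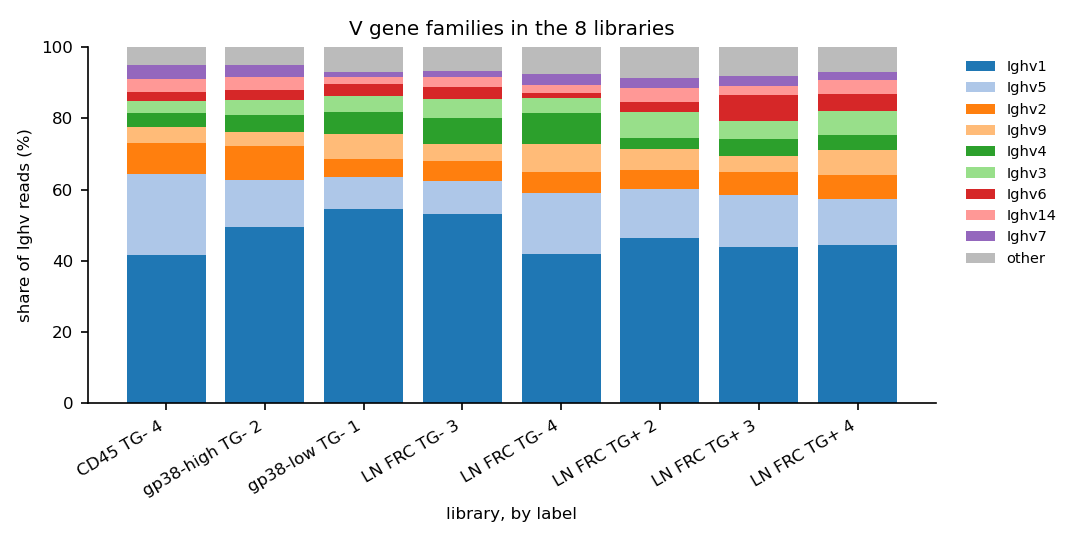
Share of Ighv reads in percent by V gene family, as 1 stacked bar for each of the 8 libraries, with the smaller families together as other. The Ighv1 family takes 41.6% to 54.6% of every bar, and Ighv5 is largest, at 22.9%, in the library labelled CD45 TG- replicate 4.

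The annotated Ighv genes span 2.44 Mb of chromosome 12 (113572927 to 116010093, GRCm38), with 183 of 185 on the minus strand. Ighv5-1 lies nearest to the D, J and constant genes and Ighv1-86 farthest away. Members came from the whole span. Of the 62 genes nearest to J, 36 were members, and the 62 together took 44.1% of Ighv reads as a mean, with a range of 36.3% in gp38-low TG- replicate 1 to 52.2% in FRC TG- replicate 4. The next 62 genes held 30 members with 32.3% of reads (26.3% to 36.4%), and the 61 farthest genes held 37 members with 23.6% (19.6% to 29.3%). Similar numbers of members at the 2 ends of the locus thus carried unequal mean shares.

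**Figure D4:**
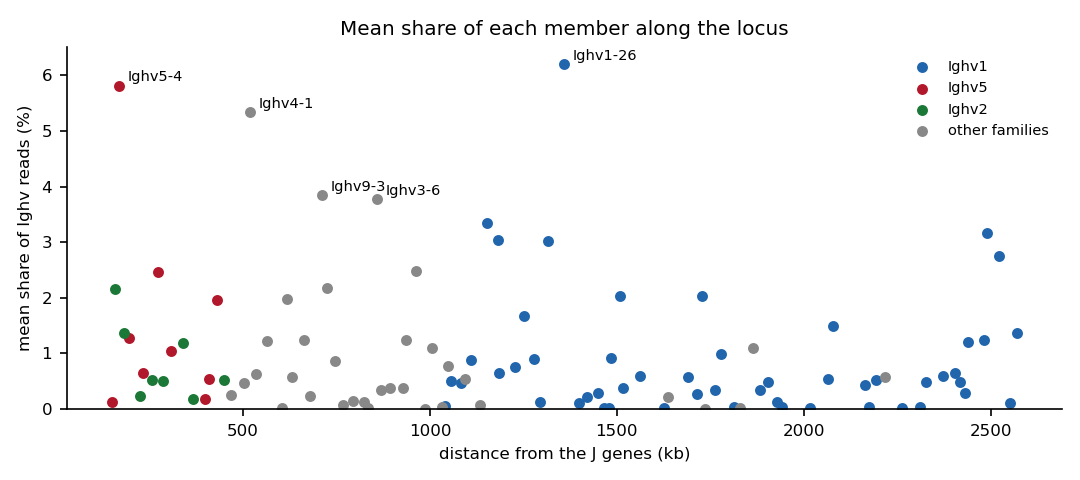
Mean share of Ighv reads in percent for each of the 103 members against its distance in kb from the J genes, coloured by family. Ighv5-4 (5.81%) and Ighv4-1 (5.34%) stand near the J end, Ighv1-26 (6.20%) in the middle, and Ighv1-81 (3.17%) and Ighv1-82 (2.75%) at the far end.

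Most members were annotated as functional. Of 113 genes annotated as functional V genes 97 were members, against 6 of 70 V pseudogenes and 0 of the 2 genes of the remaining class. The 6 pseudogenes (Ighv1-2, Ighv1-62, Ighv1-38, Ighv3-2, Ighv8-7 and Ighv1-70) had 10 to 64 reads each over the 8 libraries, and all V pseudogenes together took 0.128% to 0.320% of Ighv reads. Ighv1-62 is 96.3% identical to Ighv1-53, and Ighv1-38 is 90.6% identical to Ighv1-26. Just inside the limit of 10 reads were Ighv1-70 with 10 and Ighv8-6 and Ighv6-5 with 12 each, and just outside were the pseudogenes Ighv1-79, Ighv1-25 and Ighv1-30 with 9 each. Of the 16 functional V genes below the limit, 7 had 0 reads and none had over 6. Members held 99.88% to 99.95% of the Ighv reads of the 8 libraries.

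Each member's nearest relative in the locus was 71.5% to 98.6% identical in transcript sequence (median 92.2%), and 29 members had a relative at 95% or more. Across the 103 members, which are related sequences and not independent, identity to the nearest relative had a Spearman correlation of 0.07 with the mean share. How NOD alleles that differ from the reference were mapped was not tested. Unmapped reads were 48.2% to 63.8% of all reads in the 8 libraries and reads with several matches 6.28% to 7.28%.

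The 8 repertoires overlapped in part. Over the 28 pairs of libraries, the percentage of Ighv reads in common (the sum over the 103 members of the smaller of the 2 shares) was 58.9% to 78.3%, with a median of 68.3%. By this measure the closest pair, at 78.3%, was gp38-low TG- replicate 1 and FRC TG- replicate 3, labelled as islet and lymph node. Their Pearson correlation across the members was 0.86. Their acinar markers summed to 384 and 430.0 CPM. The least alike pair by this measure was labelled as islet cells of TG- mice, gp38-high replicate 2 and gp38-low replicate 1, at 58.9%. Other measures ordered the pairs otherwise. By Spearman correlation the closest were FRC TG- replicate 3 and FRC TG+ replicate 3 (0.89), and the least alike FRC TG- replicates 3 and 4 (0.69). By Pearson correlation the least alike were CD45 TG- replicate 4 and gp38-low TG- replicate 1 (0.39). The 2 libraries labelled FRC TG- shared 65.9%, less than the 73.3% that FRC TG- replicate 3 shared with FRC TG+ replicate 3. These pairs share libraries, so the values are a description.

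The libraries led by Ighv1-26 and the others differed in Jchain, in 7 of 12 B cell markers that were lower, and in RNA of other cell types. Jchain, which encodes the chain that joins IgM and IgA into polymers and is high in plasma cells, was at 821 CPM in gp38-low TG- replicate 1, 1200.2 CPM in FRC TG- replicate 3, 1214 CPM in FRC TG+ replicate 3 and 399.6 CPM in FRC TG+ replicate 4. Those were the 4 libraries in which Ighv1-26 led. In the other 4, led by Ighv5-4, Ighv1-22 or Ighv4-1, Jchain was at 82.3 to 228 CPM. This split by leading gene does not order the libraries by Ighv1-26 share. Ighv1-26 took 6.02% in FRC TG- replicate 4, led by Ighv4-1, and 5.69% in FRC TG+ replicate 4, which it led.

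Of 12 B cell markers reported here, 7 were lower in the libraries led by Ighv1-26 without overlap, 1 was higher without overlap and 4 overlapped. The share of all genes that separated in this split was not computed, so these counts are no result about B cell genes. The 8 T cell markers also summed lower in the libraries led by Ighv1-26, at 779 to 1153 CPM against 1264 to 1758 CPM. The sums of the 5 myeloid markers overlapped, at 1743 to 6291 CPM and 1144 to 3755 CPM. Acinar marker sums were lower in the libraries led by Ighv1-26, at 239 to 430 CPM against 944 to 3159 CPM. Fibroblast marker sums were higher there, at 61.0 to 115 CPM against 25.9 to 42.1 CPM. Ptprc was higher there too, at 568 to 679 CPM against 169 to 451 CPM. The split was thus not particular to B cell genes or to lymphocyte genes. Cd79a, which encodes a signalling partner of the B cell receptor, was at 267 to 410 CPM in the 4 libraries led by Ighv1-26 and at 549 to 754 CPM in the other 4. Ms4a1, which encodes the B cell antigen CD20, went the other way, with 159.5 to 195 CPM in the libraries led by Ighv1-26 and 42.9 to 101 CPM in the others. Of the 12 plasma cell markers, Jchain was higher without overlap and 11 overlapped, and their sums overlapped too, at 1263 to 2538 CPM and 999.9 to 1397 CPM. The 12 plasma cell markers summed to 999.9 to 2538 CPM over the 8 libraries and to 498 to 975 CPM in the other 19, where genes such as Xbp1 are also expressed by secretory and stromal cells. The part of plasma cell RNA in the V gene shares was not tested.

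Ighg3, a constant gene of IgG, was low in 3 of the 8 libraries, with 4.16 CPM in FRC TG- replicate 4, 17.7 CPM in FRC TG+ replicate 2 and 4.37 CPM in FRC TG+ replicate 4. It was at 108 to 291 CPM in the remaining 5. Ighm was at 2562 to 8625 CPM and Igha, the constant gene of IgA, at 842 to 2954 CPM.

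Over all 27 libraries, Jchain was the gene outside the immunoglobulin loci whose level was most like summed Ighv, with a Spearman correlation of 0.96 among 14808 genes with a mean of at least 1 CPM. Sf3a1, a splicing factor gene (0.87), Rrp36 (0.87), Retnla (0.85) and Trmt112 (0.85) followed. These values mix the contrast of 8 against 19 libraries with order within each set, and the points share their depth and sort. Sf3a1 was at 86.9 to 159 CPM in the 8 and at up to 86.0 CPM in the 19, so its difference in level was small, while Retnla, a gene of alternatively activated macrophages, was at 15.9 to 231 CPM in the 8 and at up to 0.446 CPM in the 19.

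The few Ighv reads of the other 19 libraries were concentrated on 1 gene in many of them. In the 14 libraries with at least 40 Ighv reads, the leading gene took 30.4% to 95.8% of the reads, with a median of 61.8%, and over 50% in 8 of the 14. They had reads on 2 to 17 Ighv genes. For comparison, 100 reads drawn from 1 of the 8 Ptprc-positive libraries would be expected to show 40.7 to 45.6 Ighv genes. The leading gene differed between libraries, with 11 different genes in 14 libraries.

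In several of these libraries the heavy chain V gene, the constant gene and the light chain V gene were all dominated by 1 member. In FRC TG- replicate 2, Ighv1-26 had 46 of 48 Ighv reads (95.8%, Wilson interval 86.0% to 98.8%), Ighm 404 of 407 constant reads and Igkv8-24 all 76 light chain V reads. In CD45 TG+ replicate 4, Ighv5-4 had 95 of 100 reads (95%, 88.8% to 97.8%), Igha 347 of 432 and the lambda gene Iglv1 72 of 76. The leading constant and light chain genes were those of IgM and a kappa chain in the first, and of IgA and a lambda chain in the second. Whether these chains were paired in 1 cell was not measured.

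In gp38-low TG- replicate 4, Ighv1-11 had 97 of 102 reads (95.1%, 89.0% to 97.9%), Ighm 539 of 542 and Igkv8-16 15 of 23. In CD45 TG+ replicate 1, Ighv1-26 had 80 of 89 reads (89.9%, 81.9% to 94.6%), Ighg2c 631 of 668 and Igkv6-15 125 of 178. In gp38-high TG- replicate 1, Ighv9-3 had 62 of 75 reads (82.7%, 72.6% to 89.6%), Ighg2c 226 of 303 and Igkv1-117 31 of 61. Both Ighg2c examples came from islet sorts of different genotype and used different heavy and light chain V genes.

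Over the 14 libraries, the leading constant gene took over 50% of constant reads in 10, the leading light chain V gene over 50% of its kind in 7, and all 3 kinds passed 50% in the same library in 6. The sixth was CD45 TG- replicate 1, with Ighv1-7 at 57 of 83 reads, Ighg1 at 297 of 505 and Igkv3-10 at 61 of 115. In the 8 Ptprc-positive libraries the leading light chain V gene took 6.86% to 15.5%. Constant gene shares do not separate the 2 sets, since Ighm alone took 50.3% to 65.5% in the 8.

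The rest of the 14 were mixed. In FRC TG- replicate 1, with the most Ighv reads of the 19, Ighv3-6 led with 49 of 161 reads (30.4%, 23.9% to 37.9%), and Igha led the constant genes with 343 of 737. In gp38-low TG+ replicate 2, Ighv2-3 had 64 of 93 reads (68.8%), and Ighg3 led the constant genes with 345 of 698 reads, ahead of Ighm with 326. Jchain was detected in all 19 libraries with 1 to 91 reads, and the library with 91 was CD45 TG+ replicate 1. Cd79a had 1 to 44 reads in the 19. With so few reads, PCR copies of 1 molecule and reads of 1 cell cannot be told apart, and the number of cells behind these reads is unknown.

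**Figure D5:**
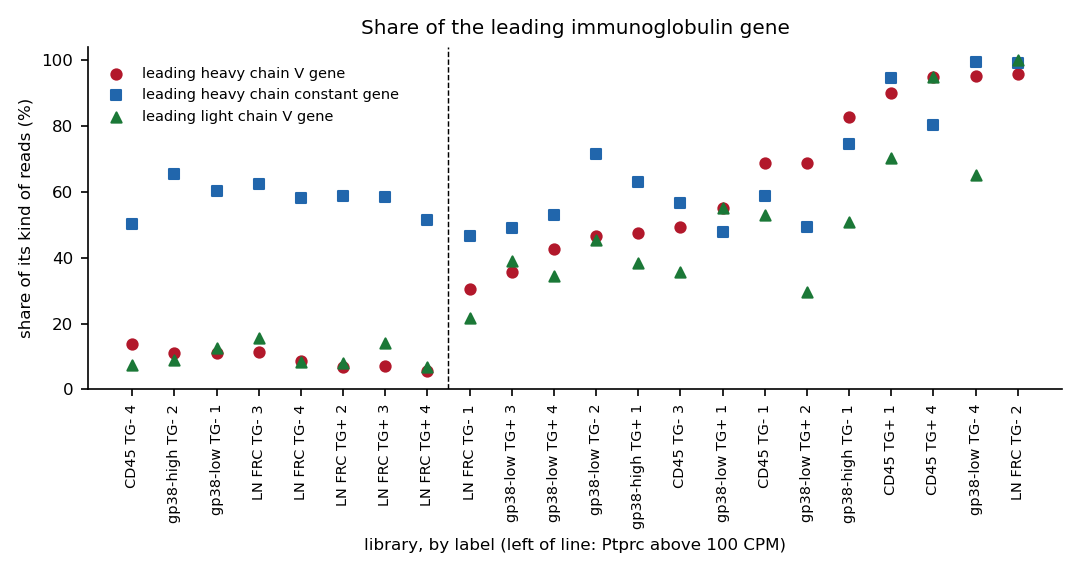
Share in percent of the leading heavy chain V gene, constant gene and light chain V gene among reads of its kind, for the 8 libraries with Ptprc above 100 CPM (left of the dashed line) and the 14 others with at least 40 Ighv reads. The heavy chain V share is 5.69% to 13.8% on the left and 30.4% to 95.8% on the right.

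The transgene contrast was run in the libraries labelled lymph node FRC (3 TG+ against 4 TG-) and CD45 (4 against 4). Only the FRC libraries had Ighv members that passed the expression filter. The question was whether Ighv use differed between mice with and without the CCL21 transgene. In the FRC libraries no member passed. Of 83 members that passed the expression filter, edgeR's quasi-likelihood test with Benjamini-Hochberg adjustment over 13819 genes called 0, against 0 of all genes (0.0%), and 1 member against 7.65% of all genes had an unadjusted p under 0.05. DESeq2 called 3.97% of all genes, all lower in TG+, and 0 members. With no filter, edgeR called 0 of 103 members, and 3 of them had an unadjusted p under 0.05, against 6.7% of all genes.

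Within FRC TG-, the members were near 0 in replicates 1 and 2, the 2 libraries with little Ptprc RNA. Ighv1-26 was at 1.27, 2.69, 255 and 59.9 CPM in FRC TG- replicates 1 to 4 and at 31.4, 141 and 47.4 CPM in TG+ replicates 2 to 4, a log2 difference of -0.06 ± 1.59 (SE, edgeR adjusted p = 0.993). Ighv5-4 was at 0.0706, 0, 56.6 and 54.4 CPM in TG- and at 58.6, 135 and 27.7 CPM in TG+, a log2 difference of 1.39 ± 1.98 (adjusted p = 0.916 by edgeR). Ighv4-1 was at 0.212, 0, 159 and 86.2 CPM and at 24.6, 97.8 and 34.4 CPM, a log2 difference of -0.22 ± 2.06 (edgeR adjusted p = 0.979). The genotypes overlapped for all 3 genes, and an SE of this size leaves differences of several fold undetectable.

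Over the 83 members the median log2 difference was 0.79, with 65 higher and 18 lower in TG+, against a median of -0.02 over all genes tested. The rule chose members by their reads in libraries that include all 3 FRC TG+ but only 2 of the 4 FRC TG- libraries. This direction is therefore not independent of the rule and is no result about genotype. With only the libraries above 100 CPM of Ptprc (3 TG+ against 2 TG-, chosen after seeing the data), the median of 84 members was -0.17, with 32 higher and 52 lower. In that comparison edgeR again called 0 members and 0.0% of all genes. An unadjusted p under 0.05 was found for 6 of 84 members and for 49 of 13074 genes (0.375%). The members were chosen by reads in these same libraries and are not independent of each other. Their higher share is therefore no result about genotype. The log2 differences were then -1.02 ± 0.71 for Ighv1-26, 0.43 ± 0.53 for Ighv5-4 and -1.17 ± 0.53 for Ighv4-1, each with an edgeR adjusted p of 0.99987. The direction of the members' median thus depended on the 2 TG- libraries with at most 161 Ighv reads.

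The member with the smallest p in the full FRC comparison was Ighv3-4, a gene of mean share 0.128%. It was at 0, 0, 0.155 and 0.108 CPM in TG- and at 2.72, 3.405 and 1.61 CPM in TG+, so the genotypes did not overlap. Its log2 difference was 5.20 ± 1.009, and it did not pass after adjustment (edgeR adjusted p = 0.645). Its share of Ighv reads was 0.00690% and 0.0109% in FRC TG- replicates 3 and 4 and 0.169% to 0.320% in FRC TG+, but 0.219% in the islet library gp38-low TG- replicate 1, a TG- library.

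In the libraries labelled CD45 the contrast could not be read for these genes. No member passed the expression filter, since their reads lay almost wholly in TG- replicate 4 (17369 Ighv reads, against 5 to 100 in the other 7), and edgeR called 0.0% of 14871 genes, with 9.43% at an unadjusted p under 0.05. With no filter, edgeR called 0 of 102 members with reads. An unadjusted p under 0.05 was found for 27 of the 102 and for 2907 of 29827 genes (9.75%) in that fit. Of the 102 members, 101 were lower in TG+, with the TG- reads almost all in 1 library. DESeq2 called 2.88% of all genes and had no member to test.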

How the data were processed

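Sorted cells were lysed in TRIzol, and libraries were made from total RNA depleted of ribosomal RNA, per the labels' protocols. Per the submitters' processing notes, STAR 2.5.2a and mm10 were used, with Trim Galore 0.4.3 for trimming and bcl2fastq 2.17. For the annotation behind the counts, the release was not given in the sources used here. Here the authors deposited 1 table of raw read counts per gene for each library, laid out as STAR writes gene counts, from uniquely mapped reads. Column 4, the reverse-strand count, was used. The first 4 lines, which name no gene, entered no library size and no test: unmapped reads took 19.4% to 67.7%, multimapped reads 4.98% to 7.28%, and reads outside genes or ambiguous 6.37% to 26.8%. Reads in genes numbered 8517844 to 25194443 per library, and 3 counts, the upper limit for a gene with 0, were worth 0.119 to 0.352 CPM.

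Of 54446 gene identifiers, 54409 matched GENCODE M21 (GRCm38) without their version number, among them all 185 Ighv genes. Shares, Shannon and Simpson indices, thinning by expectation and 95% Wilson intervals were computed in Python 3.11.15. Identity to the nearest relative was the edit distance between annotated transcripts divided by the longer length. Differences were tested with edgeR 4.0.16 (R 4.3.3), with TMM, filterByExpr, robust quasi-likelihood F tests and a false discovery rate of 0.05 over all genes tested, separately in the libraries labelled lymph node FRC and CD45. The test was also run on simulated data. Alternatives were DESeq2 1.42.0, other size factors, no filter, unstranded counts, immunoglobulin genes left out of library sizes, a replicate block and leaving out each library.

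The rule for named genes took the 10 members of highest mean share, the leading gene of each library, the 3 widest ranges, called members, members nearest to the limit of 10 reads and the 5 genes most like summed Ighv. Ighv1-43, Ighv1-77, Ighv7-4, Ighv3-4, the libraries dominated by 1 V gene, and the split by leading gene were chosen after their values were seen. The members and lists were chosen with earlier results of these data known. The values of 1 listed marker gene are not reported here.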

Additional observations from a re-analysis of the deposited data

Results flagged for a closer look

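The summed level, effective number and leading share of Ighv genes were each examined in the groups of 4 libraries, 15 checks in all, and in 5 of them 1 library lay far from the others of its label. The rate by chance, about 1 in 20, is no measure here, since level and effective number of 1 library are not independent checks. CD45 TG- replicate 4 and gp38-low TG- replicate 1 were each the only library of their label above 100 CPM of Ptprc. Their flags therefore restate the split by Ptprc. The summed Ighv level was 1230.5 CPM in CD45 TG- replicate 4, against 0.361 to 4.67 CPM in the other 3, and its effective number of V genes was 49.0, against 3.73 to 6.32. The level was 1630 CPM in gp38-low TG- replicate 1, against 0.731 to 5.37 CPM, and its effective number was 43.7, against 1.30 to 6.73. In CD45 TG+ replicate 3 the effective number was 8.09, against 1.22 to 1.65 in the other 3, but it rests on 18 Ighv reads.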

How the results depend on the processing

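The median effective number of V genes, 46.6, was 29.4 as the inverse Simpson index and 50.8 without each library's leading gene, and the other 11 alternatives gave 45.8 to 47.3. Leaving out each of the 8 libraries in turn gave a median Ighv level of 1230.5 to 1354 CPM, an effective number of 45.8 to 47.3 and a leading share of 8.66% to 10.9%. The median level rose to 1715 CPM with Gm26917 and the mitochondrial genes left out of the total. In the other 19 libraries the median leading share, 55.0%, was 45.5% to 61.8% under the 3 alternatives run, chosen after seeing the data.

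In the libraries labelled FRC, edgeR called 0 members in the main comparison and in each of 7 fits without 1 library (0 in every one), and DESeq2 called 0. Without 1 library at a time, the log2 difference ranged from -0.73 to 1.61 for Ighv1-26, from -0.82 to 0.68 for Ighv4-1 and from 0.83 to 2.11 for Ighv5-4. Ighv1-26 changed sign without TG- replicate 3 (1.61) and also when TG+ replicate 2 (0.29) or 4 (0.14) was left out. Ighv4-1 changed sign without TG- replicate 3 (0.68) or 4 (0.11) and without TG+ replicate 2 (0.12). The cause was not tested.

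Same-numbered libraries did not deviate together: correlations were -0.16, -0.003 and -0.10 for FRC and -0.13, -0.19, 0.11 and 0.24 for CD45, and 0 of 6 and 3 of 8 libraries correlated best with their own number. With the replicate block edgeR called 0 of 83 FRC members (78 higher, 5 lower), Ighv1-26 stood at 0.66 and Ighv4-1 at 0.58, and in CD45 no member could be tested.

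For CD45, the alternatives other than no filter left no member to test and have no value for these genes. Without CD45 TG+ replicate 3, edgeR called 520 of all genes. Few Ighv reads limit the 19 libraries: a count of 0 there allows up to 0.335 CPM.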
